A study of Mus musculus with 6 samples.

Results

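DNA replication and S phase genes were followed in mouse leukemia cells with a normal or a floxed A20 gene. The set held 37 genes, chosen by symbol for their role in replication licensing, DNA synthesis, nucleotide supply, homologous recombination and entry into S phase. They were not selected on their measured values, but the choice was made with earlier results of these data known. All 37 were among the 24062 genes of the count table, and all 37 were among the 12126 genes that passed the filter on low counts and were tested. Their counts were between 215, for Orc1, and 18908, for Mcm6, in any 1 library, so none was limited by few reads.

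The cells were lineage-negative hematopoietic cells, that is, cells depleted of those bearing mature lineage markers. A retrovirus carrying the leukemia fusion gene MLL-AF9 had transformed them. One group of 3 libraries came from A20 +/+ Rosa Cre-ER cells and is labelled WT. The other group of 3 came from A20 f/f Rosa Cre-ER cells and is labelled KO. Both groups carried a tamoxifen-activated Cre recombinase and both received 1 µM 4-hydroxytamoxifen for 48 h, so the control cells shared the recombinase and the drug. All cultures grew in medium with 10% serum and 10 ng/mL each of human IL-6, mouse IL-3 and mouse SCF. The labels do not say whether replicates were separate cultures, animals or transductions. The p-values therefore rest on the spread among these 6 libraries alone, and that spread may be technical.

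Libraries held 16113320 to 25415274 counted reads. Levels are given as CPM, read counts relative to the library total, after TMM scaling for library composition. Tnfaip3, the gene of A20, was at 7.39 to 8.67 CPM in the libraries labelled WT and 74.1 to 100.1 CPM in those labelled KO, against the direction a loss of the transcript would give. The count covers all exons, so it does not measure the floxed part, and every direction here is between labels. Xist was at 564 to 2109 CPM with the WT label and at 0 to 4.78 CPM in the KO-labelled ones, while the Y-linked Ddx3y was at 0 to 0.80 and 78.5 to 89.2 CPM, so the sex of the donor cells changed with the label. Replicate 1 stood apart within both groups. Its chi-square per degree of freedom against the other replicates of its group was 83.7 to 243, compared with 26.2 between WT-labelled replicates 2 and 3 and 2.42 between KO-labelled replicates 2 and 3. The markers of blood cell type were those of a myeloid culture. Ptprc, Spi1, Itgam, Cebpa and Kit were found in every library, whereas Cd3e, Ms4a1, Pax5 and Ncr1 (lymphoid), Fcer1a, Cma1, Tpsab1 and Tpsb2 (mast cell) and all 4 globin genes listed had 0 reads in all libraries. Other markers of these lists had reads, among them Cd79b (lymphoid) at 1.92 to 2.18 CPM with the WT label and 0.22 to 0.59 CPM with the KO label, and Mcpt8 (basophil) at 13.5 to 23.6 and 2.97 to 5.67 CPM. Myeloid markers differed by label in both directions. Kit was at 307 to 403 CPM with the WT label and 100 to 103 CPM with the KO label (edgeR adjusted p = 0.0002). Fcgr3 was at 25.7 to 110 and 432 to 583 CPM (0.011), and Csf1r at 2.84 to 36.2 and 134 to 353 CPM (0.043). The other myeloid markers listed did not pass.

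Before a cell divides, origins of replication are licensed in G1 by the origin recognition complex, Cdc6 and Cdt1, which load the ring-shaped MCM2-7 helicase onto DNA. In S phase, Cdc45 and the GINS complex switch the helicase on, polymerase alpha with primase lays down primers, and polymerases epsilon and delta copy the strands while held to DNA by the PCNA clamp. Transcription of many of these genes is driven by E2F factors, which the retinoblastoma proteins hold in check until G1 cyclins and their kinases release them. The whole program is active in dividing cells and is silenced when they leave the cycle.

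Across the 3 libraries per group, the replication genes differed by less than 2-fold between the labels and mostly did not pass the test. Brca2, a recombination mediator, and Rfc2, a clamp loader subunit, fell in the KO-labelled libraries, E2f1, the activating transcription factor of the S phase program, rose, and 34 members did not pass. The 3 called members are 8.11% of the 37, while 27.3% of all tested genes were called (quasi-likelihood test of edgeR, p adjusted by Benjamini and Hochberg's method across all of them). Log2 fold changes ran from −0.90 (Brca2) to 0.59 (Ccne1), with standard errors of 0.11 to 0.30. Most had the same sign. The log2 fold change was below 0 for 34 of 37 members (against 52.8% of all tested genes), with a median of −0.47 against −0.04 over all tested genes. Without adjustment for multiple testing, 15 members had a p under 0.05, a share close to the 39.8% of all tested genes. In simulated counts for this comparison 31 of 100 genes altered 2-fold and 83 of 100 altered 4-fold were recovered by edgeR. The simulated libraries were independent of each other, and the altered genes were drawn from all tested genes. They did not hold the separation of replicate 1 given above, so these shares are not recovery rates for the members. In bulk RNA, fewer cells in S phase and less of these transcripts per cell cannot be told apart.

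**Figure D1:**
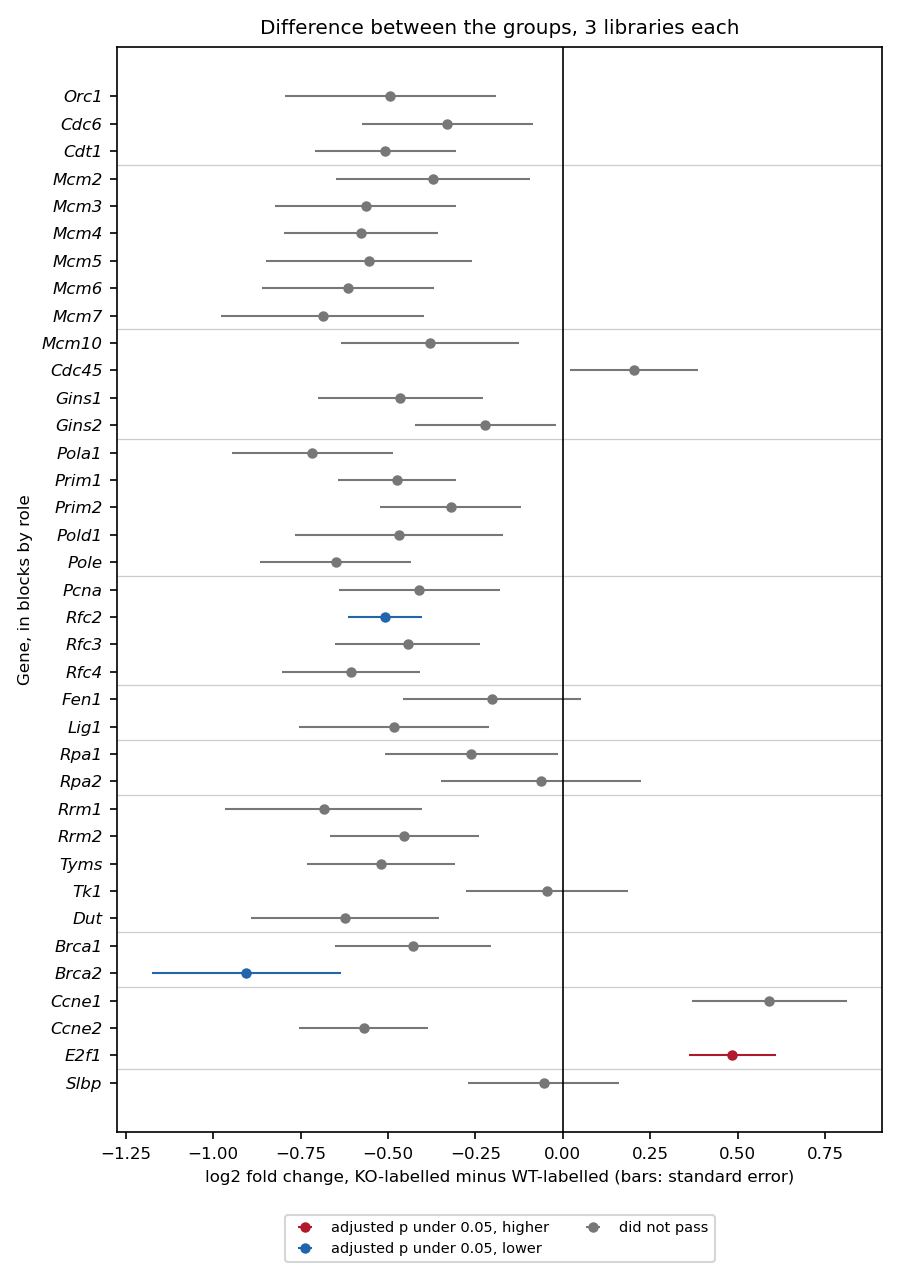
Log2 fold change of each replication gene, KO-labelled minus WT-labelled, with its standard error (bars, 3 libraries per group), in blocks by role. Of the 37 points 34 lie below 0, and the coloured points, Rfc2 and Brca2 below 0 and E2f1 above it, are those that passed the test.

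The spread within groups came mainly from replicate 1, and it went in opposite directions in the 2 groups. The WT-labelled replicate 1 was the highest of the 6 libraries for 30 of the 37 members (against 29.2% of all tested genes), and the KO-labelled replicate 1 was the lowest for 31 (against 23.6%). Relative to the mean of replicates 2 and 3 of the same group, the WT-labelled replicate 1 was at a median of 1.496-fold (range 0.72 for Brca2 to 2.00 for Pold1) and the KO-labelled replicate 1 at 0.72-fold (0.57 for Brca2 to 1.11 for E2f1). Summed over the members, levels were 7845, 4798 and 4961 CPM with the WT label and 3520.3, 4706 and 4592 CPM with the KO label. The 4 libraries of replicates 2 and 3 thus lay within a narrow band, with replicate 1 above it in one group and below it in the other. The cause was not tested. Gapdh, a glycolytic gene often taken as constant, was at 2645 and 2716 CPM in the 2 replicate 1 libraries and at 167 to 254 CPM in the other 4, so for that gene replicate 1 stood apart in the same direction in both groups. The 9 myeloid identity markers, none at 0, summed to 1324, 4564 and 3842 CPM with the WT label and 3836, 2719 and 2718 CPM with the KO label, so replicate 1 was the lowest of one group and the highest of the other, the reverse of the replication genes.

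**Figure D2:**
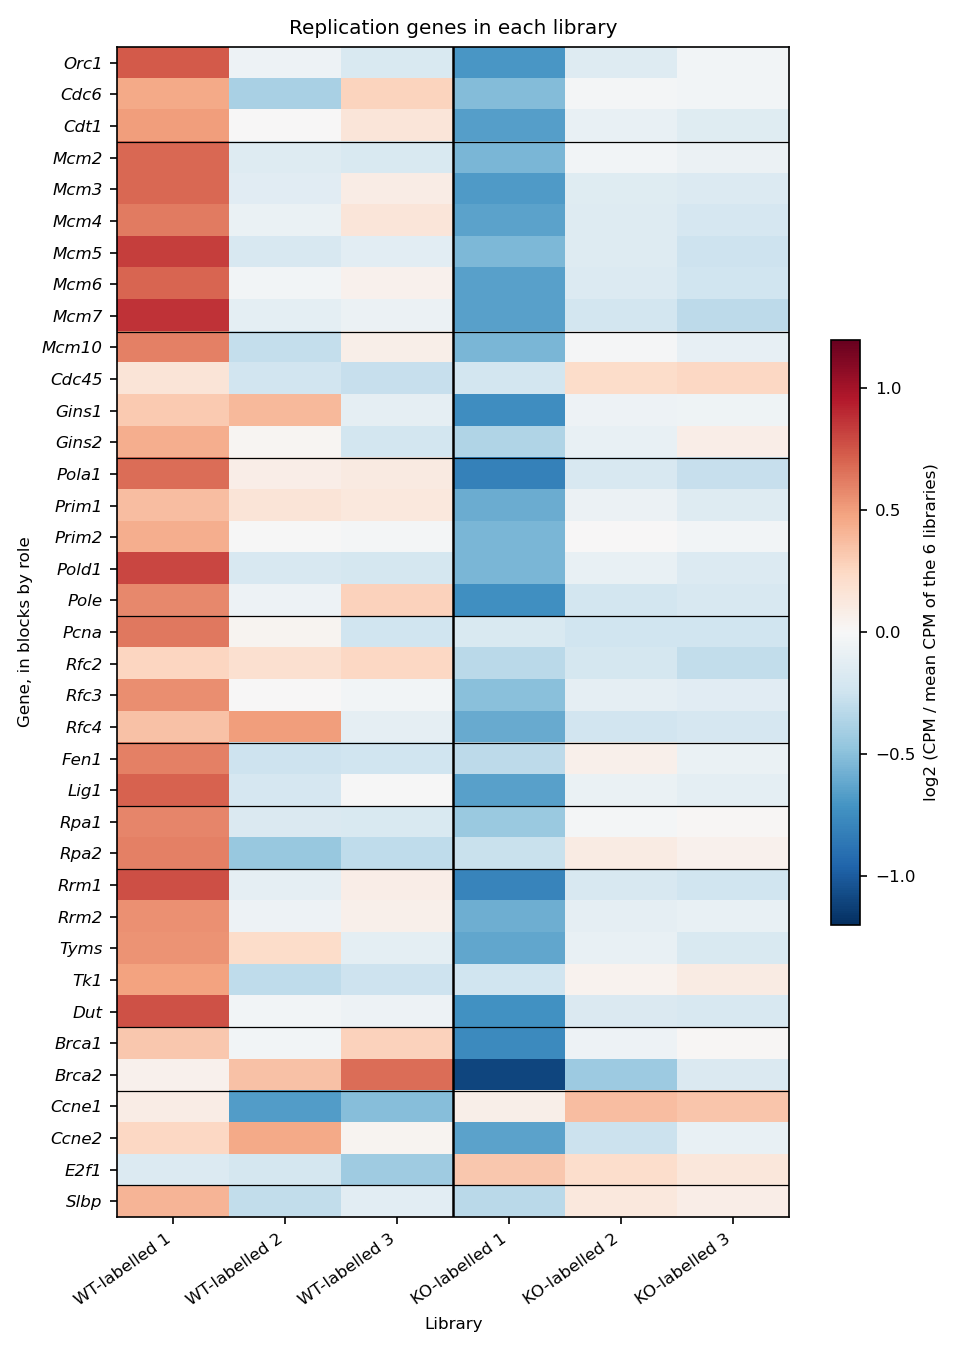
Level of each replication gene in each library, as the log2 ratio of its CPM to its mean over the 6 libraries; rows are in blocks by role and the vertical line divides WT-labelled from KO-labelled libraries. The first WT-labelled column is the highest for 30 of 37 genes and the first KO-labelled column the lowest for 31.

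The replicate 1 pair and the pair of means over replicates 2 and 3 therefore gave different pictures. In replicate 1, with 1 library per group and no test, the median log2 ratio of KO-labelled to WT-labelled CPM over the members was −1.09, and 36 of 37 were below 0. E2f1, at 0.48, was the exception. In replicates 2 and 3 the median was −0.11 and 22 of 37 were below 0. The same medians over the tested genes with reads in every library were −0.055 and −0.003. When only replicates 2 and 3 were tested, 7 members came out higher and 6 lower, 35.1% of the 37 against 52.9% of all genes tested in that fit. Those higher were Cdc45, Fen1, Rpa2, Tk1, Ccne1, E2f1 and Slbp, and those lower were Mcm6, Pola1, Prim1, Rfc2, Brca2 and Ccne2. That fit rests on 2 libraries per group, of which KO-labelled replicates 2 and 3 were the closest pair of all. With replicates 2 and 3 summed in each group, which leaves 2 samples per group, 0 members passed, with 8.44% of all genes called by edgeR. With 1 library left out, the members called were 4 without WT-labelled replicate 1 (42.8% of all genes), 1 without WT-labelled replicate 2 (19.8%), 2 without WT-labelled replicate 3 (20%), 1 with KO-labelled replicate 1 out (18.4%), and 0 with KO-labelled replicate 2 (15.0%) or 3 (15.4%) out. The reported test gave 15 members with an unadjusted p under 0.05, and DESeq2 called 2 higher and 9 lower, where it called 33.7% of all genes.

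**Figure D3:**
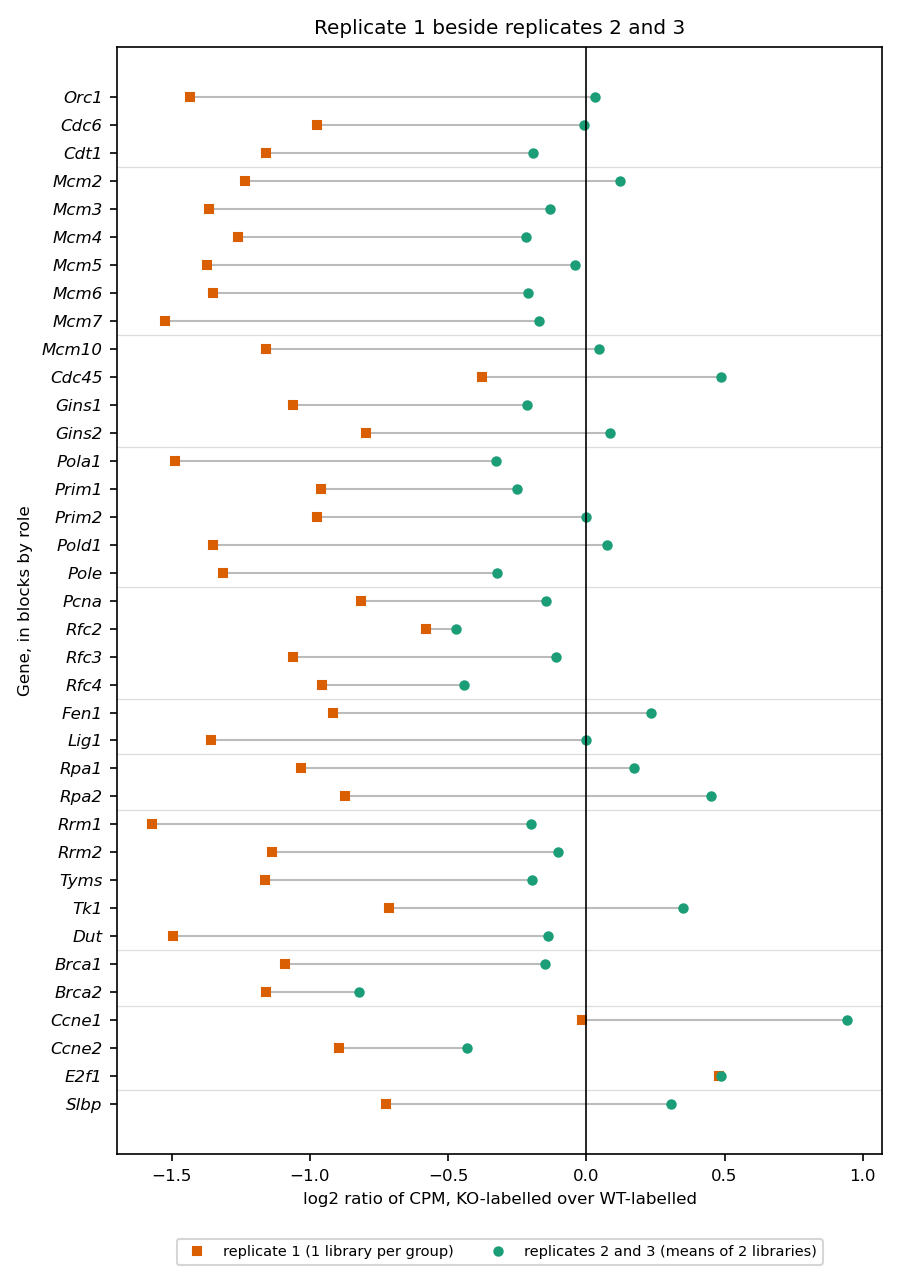
Log2 ratio of KO-labelled to WT-labelled CPM for each replication gene in replicate 1 (squares, 1 library per group) and in the means of replicates 2 and 3 (circles); grey lines join the values of a gene. The squares lie below 0 for all genes except E2f1, while 22 of 37 circles do.

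Origin licensing starts with Orc1, the largest subunit of the origin recognition complex, and the loaders Cdc6 and Cdt1. Orc1 stood at 26.2, 15.1 and 13.8 CPM with the WT label and 9.69, 14.1 and 15.4 CPM with the KO label. Levels of Cdc6 across replicates 1 to 3 were 70.2, 39.2 and 61.8 CPM (WT-labelled) and 35.7, 50.3 and 50.2 CPM (KO-labelled). Cdt1 had 90.5, 64.3 and 70.6 CPM in WT-labelled replicates and 40.5, 60.3 and 57.8 CPM in KO-labelled replicates. The groups overlapped for Orc1 and Cdc6, and for Cdt1 all KO-labelled libraries lay below all WT-labelled ones. None of these genes passed (log2 fold changes −0.49, −0.33 and −0.51; adjusted p = 0.27, 0.36 and 0.11 by edgeR). In replicates 2 and 3, Orc1 and Cdc6 differed by 0.03 and −0.01 on the log2 scale. Of the exon bases of Orc1, 10.8% are shared with Gm12743 on the other strand.

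The 6 subunits of the MCM2-7 helicase were among the most abundant members and varied together. Mcm6 was the highest. The WT-labelled replicates held Mcm6 at 789, 475 and 505 CPM, compared with 309, 435 and 412 CPM for KO-labelled replicates. Mcm7 stood at 474, 239.6 and 247 CPM with the WT label and 165, 223 and 209 CPM with the KO label. Of the 31-base words of Mcm7 33.4% occur in other genes, above all Gm5487, and 12.6% of its exon bases are shared with other genes. Its level is therefore less certain. Levels of Mcm2 across replicates 1 to 3 were 496, 276 and 272 CPM (WT-labelled) and 211, 302 and 294 CPM (KO-labelled). For all 6 subunits the WT-labelled replicate 1 was highest and the KO-labelled replicate 1 lowest. Groups did not overlap for Mcm3, Mcm4, Mcm6 and Mcm7 and overlapped for Mcm2 and Mcm5. Over all members, the groups did not overlap for 17 of 37 (against 47.6% of all tested genes), with the KO-labelled side lower for 16 of them (against 23.5%) and higher for 1, E2f1 (against 24.1%). Log2 fold changes of the subunits ran from −0.37 (SE 0.28) for Mcm2 to −0.69 (SE 0.29) for Mcm7, and 0 of 6 passed (adjusted p 0.095 to 0.37 by edgeR). DESeq2, which called 33.7% of all genes, called Mcm4 and Mcm6 lower (adjusted p = 0.049 and 0.045).

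Per kilobase of annotated exon, which allows levels of different genes to be compared, the order of the subunits was nearly fixed. In the WT-labelled libraries Mcm6 was at 126 ± 37.2 CPM per kb (SD, n = 3), Mcm3 at 111 ± 34.4, Mcm5 at 90.4 ± 38.8, Mcm7 at 72.3 ± 30.2, Mcm4 at 64.0 ± 16.3 and Mcm2 at 50.02 ± 18.4. Neighbours in this order differed by less than their SD. Within each library, however, the order Mcm6, Mcm3, Mcm5 held at the top and Mcm2 was last in all 6, while Mcm7 was above Mcm4 in 5 libraries and below it in WT-labelled replicate 3. Pcna was the member with the highest level per kilobase in each of the 6 libraries (181 ± 57.9 CPM per kb with the WT label and 136 ± 3.13 in the KO-labelled libraries), and Brca2 the one with the lowest (2.60 ± 0.55 and 1.39 ± 0.43). Exon lengths are those of all annotated transcripts together, so a gene with long rare exons appears lower than it is.

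Promoter sequences from RefSeq (GRCm38.p6) are shown for helicase, initiator and recombination genes because they carry letters of the E2F motif. Of these genes Mcm6, Mcm5, Cdc6 and Pola1 were highest of their group in WT-labelled replicate 1, and Brca2 was lowest there. A promoter was found for 30 of the 37 members. The window ran from 250 bases before to 50 after the start site, and it was searched on both strands for the E2F letters TTTGGCGC, TTTCCCGC, TTTGCCGC and TTTCGCGC, which can overlap each other, and for CCAAT, the core of the NF-Y site. E2F letters were found for 12 of the 30 members (40.0%), for 28.0% of 82 other replication genes listed below, for 4.76% of 21 mitotic genes and for 2.60% of all 27025 genes with a promoter. CCAAT was found for 18 of the 30 members, 90.5% of the mitotic genes and 41.1% of all genes. Of the 9140 tested genes with a promoter, 4.85% held E2F letters and 43.2% held CCAAT. A match is a run of letters and not a shown binding site. The stretches below lie before the RefSeq start site and touch no exon annotated in GENCODE, where Cdc6 starts further upstream and its stretch falls in an intron; capitals mark E2F letters and CCAAT on either strand.
Mcm6 (chr1:128359706-128359830, minus strand): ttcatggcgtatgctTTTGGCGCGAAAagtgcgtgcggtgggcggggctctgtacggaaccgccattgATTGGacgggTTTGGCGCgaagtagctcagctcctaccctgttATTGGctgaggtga
Brca2 (chr5:150522438-150522472, plus strand): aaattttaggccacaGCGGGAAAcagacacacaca
Mcm5 (chr8:75109341-75109503, plus strand): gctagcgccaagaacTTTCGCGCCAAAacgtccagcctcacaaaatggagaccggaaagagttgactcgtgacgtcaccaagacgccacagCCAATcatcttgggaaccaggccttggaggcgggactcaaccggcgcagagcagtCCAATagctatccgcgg
Cdc6 (chr11:98907998-98908032, plus strand): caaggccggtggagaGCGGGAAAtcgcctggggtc
Pola1 (chrX:93632176-93632308, minus strand): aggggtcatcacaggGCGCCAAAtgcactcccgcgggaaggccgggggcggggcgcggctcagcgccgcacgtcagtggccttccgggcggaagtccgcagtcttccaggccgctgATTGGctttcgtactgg
Mcm5 and Mcm6 carry E2F letters on both strands in overlap together with CCAAT, Pola1 carries E2F letters once and CCAAT once, and the Cdc6 and Brca2 stretches hold E2F letters alone. All 12 members with E2F letters had a log2 fold change below 0 (median −0.53), as did 15 of the 18 without (median −0.38). E2f1, Cdc45 and Ccne1, the members with values above 0, had no such letters in this window. A link between the letters and the values was not tested.

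Of the factors that activate the loaded helicase, none passed. Mcm10 and Gins1 had log2 fold changes of −0.38 and −0.46 (adjusted p = 0.32 and 0.19 by edgeR), and Gins2, another subunit of the GINS complex, −0.22 (0.46). Exons of Gins2 share 67.3% of their bases with Gse1 on the other strand, whose log2 fold change was −0.59 (adjusted p = 0.014), and since the strand setting of the counting is not known its level is uncertain. Cdc45, which joins GINS and MCM2-7 in the active helicase, went the other way. Cdc45 had 111, 85.0 and 82.5 CPM in WT-labelled replicates and 85.4, 116 and 119 CPM in KO-labelled replicates. The groups overlapped, with a log2 fold change of 0.20 (SE 0.18, adjusted p = 0.46 by edgeR). In replicates 2 and 3 alone Cdc45 was higher by 0.47 (SE 0.07, adjusted p = 0.0018), and in replicate 1 the ratio was −0.38.

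Of the 5 polymerase and primase genes 0 passed, and Pola1, Pole and Prim1 had the lowest adjusted p. The WT-labelled replicates held Pola1 at 140.1, 92.8 and 94.5 CPM, compared with 49.9, 76.8 and 72.7 CPM for KO-labelled replicates. Pola1 encodes the catalytic subunit of polymerase alpha and lies on chromosome X, while Xist and Ddx3y differ between the labels as given above. Pole stood at 107, 69.1 and 87.2 CPM with the WT label and 43.2, 61.9 and 63.1 CPM with the KO label. For Pola1, Pole (the leading-strand polymerase) and Prim1 (the catalytic primase subunit) every KO-labelled library lay below every WT-labelled one. Their log2 fold changes were −0.72 (SE 0.23), −0.65 (SE 0.22) and −0.47 (SE 0.17), with adjusted p of 0.058, 0.064 and 0.077 by edgeR. Pola1 passed in 3 of the 19 alternatives, with a value below 0 in each. These were edgeR with upper-quartile scaling (adjusted p = 0.0495, with 27.5% of all genes called), DESeq2 (0.018, 33.7%) and edgeR on replicates 2 and 3 alone (0.0086, 52.9%). Over the 19 alternatives its adjusted p reached 0.16. Pold1, the lagging-strand polymerase, and Prim2 overlapped between groups, at −0.47 and −0.32 (adjusted p = 0.29 for both).

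Among the sliding clamp and its loader, Rfc2 fell and had the smallest standard error of the 37. Levels of Rfc2 across replicates 1 to 3 were 174, 166 and 173 CPM (WT-labelled) and 116, 126 and 119 CPM (KO-labelled). The groups were far apart relative to their spread, with means of 171 ± 4.29 and 120.4 ± 4.82 CPM (SD, n = 3). edgeR gave a log2 fold change of −0.51 (SE 0.11; adjusted p = 0.013), and it was −0.58 in replicate 1 and −0.47 in replicates 2 and 3. Leaving out KO-labelled replicate 2 or 3 ended the call (adjusted p = 0.066 and 0.079), and over the 19 alternatives the adjusted p ranged from 7.4e-05 to 0.19 with the value between −0.54 and −0.48. In mm10 Rfc2 spans chr5:134581366-134601805 (plus strand), and 15.1% of its exon bases are shared with Lat2 on the other strand. Of its 31-base words 19.4% occur in other genes, above all Lat2. Since the strand setting of the counting is not known, the level of Rfc2 is less certain. Lat2, an adaptor of myeloid signalling, was at 358 to 670 CPM with the WT label and 344 to 455 CPM with the KO label (log2 fold change −0.44, adjusted p = 0.25). Rfc4 had 54.9, 61.0 and 39.9 CPM in WT-labelled replicates and 28.3, 36.8 and 37.4 CPM in KO-labelled replicates. Its groups were separate but did not pass (log2 fold change −0.61, SE 0.20, adjusted p = 0.060). Of the exon bases of Rfc4, 12.65% are shared with Eif4a2 on the other strand, so its level is less certain too. Rfc3 was at −0.44 (adjusted p = 0.16). The WT-labelled replicates held Pcna at 591, 390.3 and 324 CPM, compared with 336, 324 and 322 CPM for KO-labelled replicates. Apart from WT-labelled replicate 1 and 2, Pcna lay between 322 and 336 CPM in all libraries, and its log2 fold change of −0.41 did not pass (adjusted p = 0.23). Of the 31-base words of Pcna 23.3% occur in other genes, mostly the pseudogene Pcna-ps2, so reads may be split between them.

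Lagging-strand maturation and single-strand binding showed overlapping groups throughout. Fen1, the flap endonuclease, and Lig1, the ligase that joins Okazaki fragments, had log2 fold changes of −0.20 and −0.48 (adjusted p = 0.61 and 0.23 by edgeR); 84.2% of the exon bases of Fen1 are shared with other genes, so its level is uncertain. Rpa1 and Rpa2, subunits of the single-strand binding protein, were at −0.26 and −0.06 (adjusted p = 0.49 and 0.90). Rpa2 stood at 129, 62.1 and 68.8 CPM with the WT label and 70.3, 90.7 and 88.0 CPM with the KO label. Without replicate 1, Rpa2 was higher by 0.43 (adjusted p = 0.0053), while the replicate 1 ratio was −0.87.

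Of 5 genes that supply deoxynucleotides 0 passed. Levels of Rrm1 across replicates 1 to 3 were 722, 392 and 444 CPM (WT-labelled) and 243, 369.8 and 358 CPM (KO-labelled). Tk1 had 132, 76.8 and 80.3 CPM in WT-labelled replicates and 80.7, 98.1 and 102 CPM in KO-labelled replicates. Rrm1, the large subunit of ribonucleotide reductase, was lower in each KO-labelled library than in each WT-labelled library, and its log2 fold change of −0.68 (SE 0.28) did not pass (adjusted p = 0.12 by edgeR). The same held for the small subunit Rrm2 (−0.45, adjusted p = 0.16) and for Dut, the dUTPase that keeps uracil out of DNA (−0.62, adjusted p = 0.13). Tyms, which makes thymidylate, overlapped between groups (−0.52, adjusted p = 0.11). Tk1, the salvage kinase for thymidine, did not differ by more than its spread (−0.04, SE 0.23, adjusted p = 0.91), and in replicates 2 and 3 alone it was higher by 0.33 (adjusted p = 0.0093).

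Brca2, which acts in the repair of broken DNA, fell and had the lowest log2 fold change of the 37. The WT-labelled replicates held Brca2 at 28.3, 34.8 and 43.3 CPM, compared with 12.7, 20.1 and 24.2 CPM for KO-labelled replicates. The KO-labelled values lay below all WT-labelled ones, and WT-labelled replicate 1 was here the lowest of its group. In mm10 Brca2 spans chr5:150522630-150570329 (plus strand). edgeR gave a log2 fold change of −0.90 (SE 0.27; adjusted p = 0.046), with −1.16 in replicate 1 and −0.82 in replicates 2 and 3. The call was lost when any library except WT-labelled replicate 1 was left out, the adjusted p then being 0.0503 at the lowest (KO-labelled replicate 3 out) and 0.14 at the highest (WT-labelled replicate 3 out). It was also lost with library totals in place of TMM (0.074; 24.8% of all genes called) or a filter of 5 CPM in 3 libraries (0.052; 26.0% called), and over the 19 alternatives the value stayed between −1.11 and −0.68. Brca1, its partner in recombination, was at −0.43 (SE 0.22) and did not pass (adjusted p = 0.20).

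Of the roles, only that of the 3 regulators of S phase entry had more values above 0 than below. E2f1 rose. E2f1 stood at 52.9, 51.0 and 43.8 CPM with the WT label and 73.8, 68.2 and 64.8 CPM with the KO label. All KO-labelled libraries lay above all WT-labelled libraries, with group means of 69.0 ± 4.54 and 49.3 ± 4.79 CPM (SD, n = 3). edgeR gave a log2 fold change of 0.48 (SE 0.12; adjusted p = 0.027), and replicate 1 and replicates 2 and 3 gave 0.48 and 0.49. In mm10 E2f1 spans chr2:154559407-154569892 (minus strand). The call was lost when any library except WT-labelled replicate 1 was left out (adjusted p 0.060 with WT-labelled replicate 2 out to 0.10 with KO-labelled replicate 2 out), with the value between 0.41 and 0.55 over the 19 alternatives. Levels of Ccne1 across replicates 1 to 3 were 29.1, 17.2 and 19.2 CPM (WT-labelled) and 28.8, 35.5 and 34.6 CPM (KO-labelled). Ccne1, encoding cyclin E1, which activates Cdk2 at the start of S phase, had the highest log2 fold change of the set, 0.59 (SE 0.22), and did not pass (adjusted p = 0.092). Its groups overlapped only between the 2 replicate 1 libraries. Without WT-labelled replicate 1 it was higher by 0.86 (edgeR adjusted p = 0.0035), with 42.8% of all genes called. With any other 1 library left out it did not pass, at 0.13 (KO-labelled replicate 1 out) to 0.24 (KO-labelled replicate 2 out). Ccne2 had 62.7, 72.5 and 53.8 CPM in WT-labelled replicates and 33.7, 44.0 and 49.6 CPM in KO-labelled replicates. For its paralogue Ccne2 the KO-labelled libraries all lay below the WT-labelled ones, and the log2 fold change of −0.57 (SE 0.18) did not pass (adjusted p = 0.059). The 2 cyclin E genes thus had values of opposite sign, and the difference between them was not tested. Of the exon bases of Ccne2, 17.4% are shared with Ints8 on the other strand, which was at 44.9 to 64.5 CPM with the WT label and 51.9 to 58.8 CPM with the KO label.

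Other genes of the same machinery, listed by role, also mostly had values below 0. Of 104 such genes 2 rose and 17 fell (18.3%, against 27.3% of all tested genes), with a median log2 fold change of −0.32, and their replicate 1 and replicates 2 and 3 medians were −0.95 and −0.01. The number lower moved between 3 and 19 when 1 library was left out: with KO-labelled replicate 1, 2 or 3 out it was 7, 3 and 4, and with WT-labelled replicate 1, 2 or 3 out 19, 8 and 8. It was 29, with 12 higher, in replicates 2 and 3 alone. Of all genes, 9.49%, 7.41% and 7.54% were called lower with KO-labelled replicate 1, 2 or 3 out, 20.8%, 9.95% and 10.2% with WT-labelled replicate 1, 2 or 3 out, and 27.1% (25.8% higher) in replicates 2 and 3 alone. Among 19 licensing and firing factors 2 fell: Topbp1, an activator of origin firing and of the ATR checkpoint (290.3 ± 41.9 to 169 ± 31.1 CPM, log2 fold change −0.78, adjusted p = 0.021 by edgeR), and Mcmbp, which binds MCM subunits (118 ± 12.2 to 86.0 ± 9.06 CPM, log2 fold change −0.46, adjusted p = 0.047 by edgeR). Among 22 genes of the fork and lagging strand, 4 fell and 1 rose. Timeless, of the fork protection complex, went from 83.7 ± 17.8 to 45.2 ± 8.65 CPM, Pole2, a subunit of polymerase epsilon, from 44.9 ± 4.11 to 27.6 ± 4.76 CPM, and Atad5, which unloads PCNA, from 61.8 ± 7.54 to 35.7 ± 9.79 CPM. Pold4, the smallest subunit of polymerase delta, rose from 31.6 ± 6.54 to 67.2 ± 10.4 CPM (log2 fold change 1.09, SE 0.19, adjusted p = 0.0064 by edgeR). Among 12 nucleotide genes 2 fell, and one of them was Dck, the deoxycytidine kinase (85.1 ± 13.0 to 44.8 ± 7.35 CPM, log2 fold change −0.93, adjusted p = 0.0084 by edgeR). Hells, a chromatin remodeller, was the 1 of 8 replication-coupled chromatin genes that fell (134 ± 42.4 to 70.8 ± 14.0 CPM, log2 fold change −0.92, adjusted p = 0.035 by edgeR).

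Homologous recombination genes other than Brca1 and Brca2 included 5 that fell and 0 that rose of 21 (23.8% called, against 27.3% of all tested genes). Of all tested genes 13.7% were called lower. All 21 had a log2 fold change below 0 (against 52.8%). Rad51b fell from 8.85 ± 0.36 to 3.79 ± 0.977 CPM, and Palb2, which joins Brca1 to Brca2, from 19.7 ± 0.784 to 10.8 ± 2.59 CPM. Rad54b fell from 15.8 ± 1.29 to 8.59 ± 1.93 CPM and Rad50, of the end-resecting MRN complex, from 92.1 ± 15.1 to 58.0 ± 7.74 CPM. For these 4, edgeR gave adjusted p of 0.014 to 0.026. The number lower was 3, 0 and 2 with KO-labelled replicate 1, 2 or 3 out, 5, 2 and 2 with WT-labelled replicate 1, 2 or 3 out, and 7 in replicates 2 and 3 alone, for which the shares of all genes are those of the preceding paragraph. Among 22 genes of RB-E2F and G1/S control, 1 rose and 3 fell. E2f2, an activating E2F like E2f1, rose from 42.6 ± 11.1 to 73.4 ± 8.02 CPM (log2 fold change 0.79, SE 0.21, adjusted p = 0.033 by edgeR). Rbl1, the pocket protein p107, fell from 95.7 ± 7.23 to 58.6 ± 11.1 CPM, the checkpoint kinase gene Chek1 from 43.9 ± 6.37 to 25.2 ± 6.26 CPM, and E2f7, a repressing E2F, from 25.4 ± 3.80 to 15.1 ± 3.40 CPM (edgeR adjusted p 0.020 to 0.040). Of the 17 leading called genes of these lists, 14 lost the call when 1 library was left out: 9, 13 and 12 of them without KO-labelled replicate 1, 2 or 3, and 0, 8 and 10 without WT-labelled replicate 1, 2 or 3. Dck and Pold4 were among the 3 that kept theirs under each of these.

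Mitotic genes and inhibitors of the cell cycle give the setting of these values. Of 25 mitosis and G2/M genes 3 fell (Kif23, Cenpf and Foxm1) and 0 rose, with a median of −0.41. The 12% called compares with 27.3% of all tested genes called and 13.7% called lower. Foxm1 lost its call without any 1 library, Kif23 without KO-labelled replicate 2 or WT-labelled replicate 3, and Cenpf without replicate 3 of either group. The KO-labelled replicate 1 was the lowest library for all 25, as for 31 of 37 replication members. Summed mitotic levels were 3858, 3137 and 3241 CPM with the WT label and 1909, 2922 and 2911 CPM with the KO label. Among 12 D cyclins, their kinases and CDK inhibitors, 4 rose and 1 fell (of all tested genes 13.7% rose and 13.7% fell). By p, the leading ones were Cdkn1a, Cdkn1c, Cdkn2a and Cdkn2b, and Cdkn2b lost its call without any 1 KO-labelled library or WT-labelled replicate 2. The other that rose was Cdk6, a kinase partner of the D cyclins, from 86.3 ± 9.4 to 118 ± 10.4 CPM (edgeR adjusted p = 0.045). The inhibitors Cdkn1b, Cdkn2c and Cdkn2d did not pass. Cdkn1a (p21) was at 77.1 to 96.8 CPM with the WT label and 273 to 323 CPM with the KO label, and Cdkn2a at 17.2 to 20.3 and 37.2 to 60.5 CPM. Cdkn1c (p57) was the 1 that fell, from 3.27 to 3.52 CPM down to 0.56 to 0.95 CPM. In Cdkn1a and Cdkn2a, KO-labelled replicate 1, the library with the lowest replication and mitotic sums, was the highest. Markers listed for other cell types also differed in level by label. The 9 mast cell and basophil markers summed to 82.0 to 156 CPM with the WT label and 16.6 to 18.3 CPM with the KO label, with 2 of 4 tested members lower, and the 10 erythroid and megakaryocyte markers to 24.0 to 39.4 and 2.09 to 2.55 CPM, with 3 of 4 tested lower. With the WT label each sum was mostly that of 1 gene, Gata2 or Itga2b, which myeloid progenitors can also express. Gata2 was at 58.0 to 119.7 CPM with the WT label and 4.71 to 5.07 CPM with the KO label, and Itga2b at 21.2 to 36.1 and 0.72 to 1.00 CPM. In the KO-labelled libraries Hdc, at 6.28 to 7.98 CPM, was above Gata2, and Klf1, at 0.90 to 1.26 CPM, was above Itga2b. Of the 9 lymphoid markers 1 was tested, Cd79b, and it fell (log2 fold change −2.50, adjusted p = 0.010 by edgeR); their sums were 2.42 to 3.03 and 0.39 to 0.68 CPM. Stromal and endothelial markers went in both directions. Pecam1 fell from 294 ± 35.5 to 74.5 ± 25.6 CPM (edgeR adjusted p = 0.0017). Pdgfrb rose from 0.39 ± 0.14 to 3.48 ± 0.69 CPM (0.0023), and Col1a1 did not pass (0.83). The 11 markers of macrophage and neutrophil maturation summed to 47.7 to 252 and 234 to 615 CPM, with 1 of 6 tested higher and 2 lower; WT-labelled replicate 1 was the lowest and KO-labelled replicate 1 the highest. The part of these differences in the replication values was not tested.

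**Figure D4:**
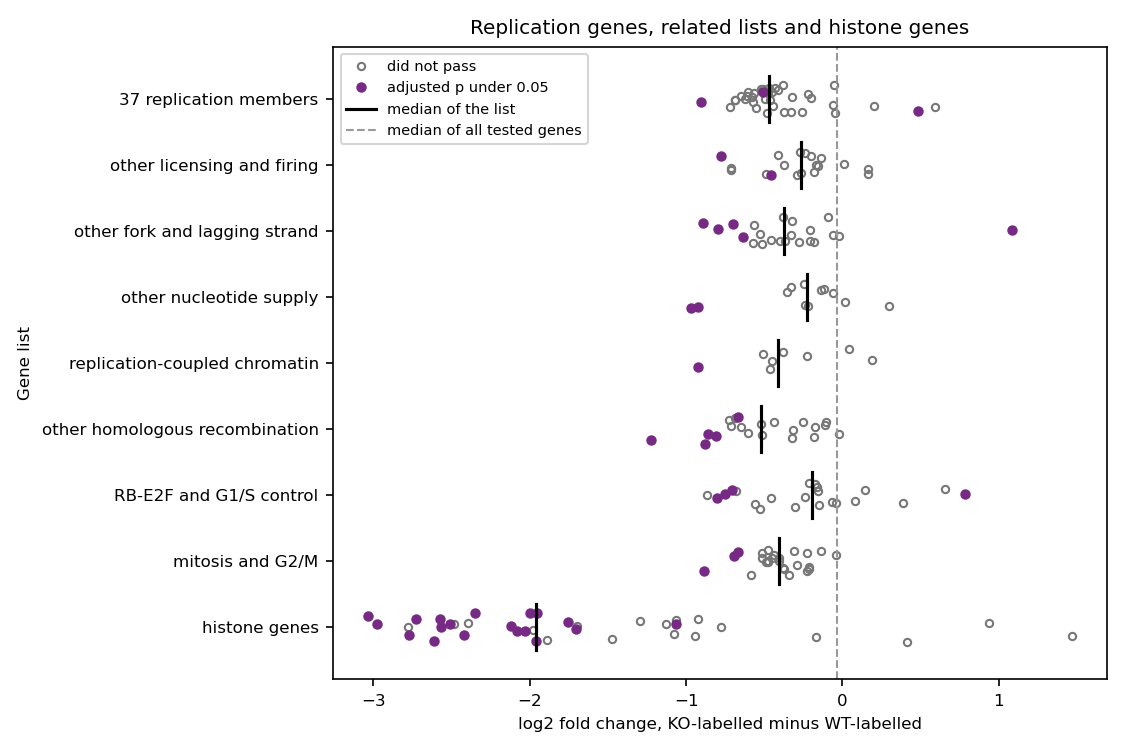
Log2 fold change, KO-labelled minus WT-labelled, of each tested gene in the replication set, the related lists and the histone genes; filled points passed the test, black bars are list medians and the dashed line is the median of all tested genes. The replication set has a median of −0.47 with 3 filled points, and the histone genes a median of −1.96 with 19.

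Slbp binds the stem-loop that ends replication-dependent histone mRNAs, which carry no poly(A) tail, and is itself made in S phase. The WT-labelled replicates held Slbp at 119, 73.1 and 82.4 CPM, compared with 71.8, 97.7 and 94.5 CPM for KO-labelled replicates. The groups overlapped with −0.06 as the log2 fold change (SE 0.22; edgeR adjusted p = 0.88). Of 68 histone genes in the table by symbol, 37 had enough reads to be tested, and 19 of these fell and 0 rose, with a median log2 fold change of −1.96. The 51.4% called compares with 27.3% of all tested genes called and 13.7% called lower. Hist1h3c was at 4.63, 3.79 and 2.83 CPM with the WT label and 0.59, 0.74 and 0.78 CPM with the KO label (log2 fold change −2.42, SE 0.36, adjusted p = 0.0033). Hist1h1a, a linker histone gene, was at 1.17, 3.73 and 5.91 against 0.41, 0.48 and 0.42 CPM (−3.03, SE 0.64, adjusted p = 0.013). Hist1h2bj was at 5.13, 3.90 and 2.13 against 0.95, 0.74 and 0.48 CPM (−2.35, adjusted p = 0.010), and Hist1h2bk at 1.96, 1.49 and 1.19 against 0.090, 0.30 and 0.18 CPM (−2.97, adjusted p = 0.0080). The KO-labelled values rest on few reads. Hist1h3c had 13, 17 and 13 reads there and Hist1h1a 9, 11 and 7. Hist1h2bj had 21, 17 and 8 and Hist1h2bk 2, 7 and 3. For these 4 genes no KO-labelled library reached the WT-labelled range, and Hist1h1a lost its call without any 1 KO-labelled library, Hist1h2bj without KO-labelled replicate 2 or 3 and Hist1h2bk without KO-labelled replicate 3. Over the 35 with reads in every library, the median log2 ratio was −1.06 in replicate 1 and −2.13 in replicates 2 and 3. Hist1h2bc and Hist1h1c, named after their values were seen, were the most abundant of the 37 and had values above 0 (1.47 and 0.94, adjusted p = 0.12 and 0.28). With them included, summed histone levels were 62.4, 141 and 125 CPM with the WT label and 116, 58.5 and 56.9 CPM with the KO label, so the sums overlapped.

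The histone counts depended on single libraries and on the test. The number called lower was 31 of 41 in replicates 2 and 3 alone and 28 of 42 without WT-labelled replicate 1, where 27.1% and 20.8% of all genes were. With KO-labelled replicate 1, 2 or 3 out it was 4 of 42, 2 of 42 and 1 of 43, and with WT-labelled replicate 2 or 3 out 6 of 37 and 10 of 37. The shares of all genes called lower in these fits were 9.49%, 7.41%, 7.54%, 9.95% and 10.2%, in the same order. It was 9 of 37 with limma-voom (12.9% of all genes) and 24 with DESeq2 (16.7%; 1 higher), and 0 of 38 with replicates 2 and 3 summed in each group (4.12%). The libraries were made with a stranded mRNA kit, which selects polyadenylated RNA and so leaves out most transcripts without a tail, and many histone genes have near-identical copies among which reads may be split. Their part in the difference was not tested.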

How the data were processed

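RNA was measured in 3 WT-labelled and 3 KO-labelled libraries, grouped by their labels. The authors deposited whole-number counts per gene that had not been normalized. The submitters' processing notes name FastQC 0.11.7, HISAT2 2.0.5, featureCounts 1.5.2 and mm10; which annotation was used, and whether counting used strand, is not given in the sources used here. Genes with low counts were removed with edgeR's filterByExpr, libraries were scaled by TMM, and groups were compared with the quasi-likelihood test of edgeR 4.0.16 (R 4.3.3) on all 12126 tested genes, with Benjamini-Hochberg adjustment and a threshold of 0.05. The 19 alternatives, DESeq2 1.42.0 and limma-voom 3.58.1 among them, changed scaling, filter, model or the libraries used. The edgeR test was tried first on simulated counts from independent libraries, where 4 of 118 calls were false. The members and gene lists were chosen with earlier results of these data known. Named genes are the members and, from each related list, up to 4 called genes in order of p. Some further genes, Cdk6 among them, were named after their values were seen. Positions and exon overlaps come from GENCODE for the same build, and promoters from RefSeq GRCm38.p6. Protein sequences were not analysed here. Of 235 listed symbols 234 were found, 1 under an older name. A few listed genes are counted in their lists but not reported here by name.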

Additional observations from a re-analysis of the deposited data

How the results depend on the processing

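The members all had at least 215 reads per library. The 3316 calls over all genes (27.3%) became 6458 (52.9%) in replicates 2 and 3 alone, 4087 (33.7%) with DESeq2, 3333 (27.5%) with upper-quartile scaling, 3006 (24.8%) with library totals, 2626 (26.0%) with the filter of 5 CPM, 2023 (16.7%) with a replicate block, 1927 (15.3%) with KO-labelled replicates 2 and 3 summed and 1061 (8.44%) with these summed in each group, and lay between 1855 and 5280 when 1 library was left out. Members called higher, 1 by the test reported, numbered 7 in replicates 2 and 3 alone, 2 with DESeq2, 0 with the replicate block, 0 with either summing, and 0 to 2 with 1 library left out. Members called lower, reported as 2, numbered 6 in replicates 2 and 3 alone, 9 with DESeq2, 3 with upper-quartile scaling, 1 with library totals, 1 with the filter of 5 CPM, 1 with the replicate block, 0 with either summing, and 0 to 2 with 1 library left out. The member median was −0.125 in replicates 2 and 3 alone and −0.55 to −0.22 with 1 library left out. Samples with the same replicate number did not deviate together (r = −0.006, −0.055 and 0.052), so the block pairs samples by number only. Values that turned positive in replicates 2 and 3 alone were those of Fen1 (0.218), Gins2 (0.069), Mcm10 (0.027), Mcm2 (0.106), Orc1 (0.013), Pold1 (0.060), Rpa1 (0.157), Rpa2 (0.433), Slbp (0.290) and Tk1 (0.332). With 1 library left out, Fen1 ranged from −0.353 to 0.144, Rpa1 from −0.395 to 0.045, Rpa2 from −0.256 to 0.348, Slbp from −0.198 to 0.184 and Tk1 from −0.189 to 0.258. Rpa2 was also at 0.007 with limma-voom, 0.015 with the replicate block and 0.013 with a term for replicate 1. Beyond the fewer or summed samples of these settings, the cause was not tested. Of 1229 values of single genes under the alternatives, 1026 kept direction and side of the threshold, 165 lost the call, 17 gained one and 21 changed sign.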
